A study of Mus musculus with 15 samples.

Results

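Cycling microglia 1 day after ATV:4D9 were taken as the cells of the 3 treated day 1 mice selected on their counts of Mki67 and Top2a, with at least 1 UMI (unique molecular identifier, a count of 1 captured RNA molecule) of either gene. They numbered 4891 of the 20459 day 1 cells and of 102043 cells in all. ATV:4D9 is an antibody to TREM2 whose Fc carries a site that binds the transferrin receptor and takes it across the blood-brain barrier. ATV:RSV, an antibody on the same transport vehicle, served as the control. All 15 mice were male C57BL/6J mice of 3.5 months carrying a human transferrin receptor knock-in (hTfR KI), each given 1 dose of 10 mg/kg. 3 mice per group were taken on day 1, 7, 14 or 28 after ATV:4D9 and on day 1 after ATV:RSV. Cells of cortex and hippocampus were enriched with CD45 beads before single-cell 3′ RNA sequencing, so the capture was not limited to microglia. Each batch held 1 mouse of every group, so that values given per mouse are also values within a batch.

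TREM2 is a lipid-sensing receptor of microglia that signals through the adaptor TYROBP and the kinase SYK and supports their survival and proliferation. Cells that enter the cycle first raise E2F target genes for nucleotide supply and DNA replication in S phase, and later the mitotic genes of G2 and M phase, which the DREAM complex holds down in resting cells and the MYBL2-FOXM1 complexes switch on. Mki67, which coats mitotic chromosomes, and Top2a, which untangles replicated DNA, both belong to the later wave, although their RNA is present from S phase on. Microglia renew slowly in the healthy adult brain and divide after injury or growth factor signals.

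The promoters of both genes that chose the cells are shown because their motifs were also frequent among the G2/M genes described below. Capitals mark the cell cycle homology region (CHR, searched as TTTGAA or TTCGAA), the element at which DREAM and its MYBL2-FOXM1 counterparts bind, and the CCAAT box, bound by NF-Y. Both strands were searched and no match overlapped another. The windows run from 250 bases before to 30 bases after the RefSeq start on GRCm38.p6, at chr7:135716350-135716629 for Mki67 and chr11:99024160-99024439 for Top2a, both on the minus strand.
Mki67: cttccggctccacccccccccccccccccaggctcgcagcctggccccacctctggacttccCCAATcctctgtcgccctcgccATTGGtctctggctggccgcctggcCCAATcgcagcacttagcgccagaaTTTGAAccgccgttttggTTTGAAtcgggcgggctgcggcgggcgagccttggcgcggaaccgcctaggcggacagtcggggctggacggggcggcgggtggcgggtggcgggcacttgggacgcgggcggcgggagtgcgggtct
Top2a: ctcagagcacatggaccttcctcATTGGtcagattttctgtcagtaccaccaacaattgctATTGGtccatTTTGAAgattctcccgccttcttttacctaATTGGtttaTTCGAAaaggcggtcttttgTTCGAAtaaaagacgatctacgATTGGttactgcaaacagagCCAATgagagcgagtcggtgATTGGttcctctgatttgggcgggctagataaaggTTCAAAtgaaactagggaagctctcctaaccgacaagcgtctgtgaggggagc
The Mki67 window held 2 CHR and 3 CCAAT matches, and the Top2a window held 4 and 6. Of the 54 genes of the G2/M list, Mki67 and Top2a included, 47 had a window, and 38 of their 52 windows (73.1%) held a CHR and 39 (75.0%) a CCAAT box. Among all 32851 windows of the same length the shares were 19.2% and 37.4%. The windows behind these shares ran further past the start than the 2 printed above. A match is a description of the letters in the window and not of binding.

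The cells carried the markers of microglia. At least 3 of 9 microglia markers were found in 1397 of 1398, 2012 of 2015 and 1473 of 1478 cycling cells of replicates 1, 2 and 3. Markers of border-associated macrophages made up 0.222, 0.260 and 0.360 UMIs per 10000 in the cycling cells and 0.166, 0.210 and 0.218 in the other day 1 cells, and 15, 23 and 29 cycling cells held at least 3 of those 7 markers. No doublet caller was run. 33 barcode sequences occurred in at least 2 of the 3 treated day 1 mice, and 4 were cycling cells in more than 1 of them. The day 1 libraries held 5998 to 7343 cells with a median of 8202 to 8996 UMIs per cell, and the other 12 libraries had medians of 4694 to 6117, so shares were compared after each cell was thinned to 3385 UMIs. Shallower cells, 3.93 to 17.8% per mouse, were left out of those shares.

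Cycling cells made up 19.6, 27.4 and 24.6% of the cells of replicates 1, 2 and 3. At 3385 UMIs per cell the shares were 11.8, 18.1 and 16.6%, with a mean of 15.5% ± 3.26 (SD, n = 3). After ATV:RSV they were 0.484, 0.304 and 0.315% (0.368% ± 0.101, SD, n = 3). All 3 treated day 1 mice lay above every other mouse, and replicate 1 was the lowest of them, its 95% exact binomial interval of 11.1 to 12.6% lying below those of replicates 2 and 3. On day 7 the shares were 0.221, 0.170 and 0.212%, on day 14 they were 0.0894, 0.0925 and 0.251%, and on day 28 they were 0.149, 0.126 and 0.118%. These values describe how the cells were chosen and were not tested. The shares of days 7, 14 and 28 rest on 5 to 15 thinned cells per mouse, and the range of day 14 overlapped those of days 7 and 28. Intervals cover counting error only.

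**Figure D1:**
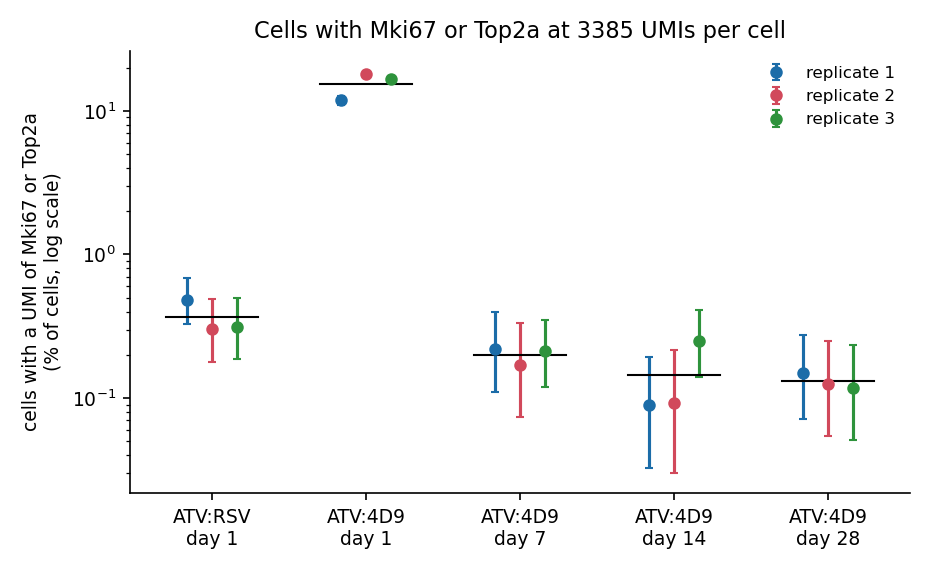
Share of cells with at least 1 UMI of Mki67 or Top2a after thinning to 3385 UMIs per cell, in percent on a log axis, for each of the 15 mice by group. Points are mice, bars are 95% exact binomial intervals and lines are means of 3 mice; the treated day 1 mice sit at 11.8 to 18.1% and every other mouse at or below 0.484%.

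Nearly all cycling cells fell into 1 of the 3 clusters deposited by the authors. Cluster 2 held 4866 of the 4891, and clusters 0 and 1 held 14 and 11. Cluster 2 also held most day 1 cells of any kind, 18416 of 20459. Among those in cluster 2, 26.4% were cycling cells (4866 of 18416). In clusters 0 and 1 of the same libraries, thinned cells had a marker UMI in 0.970% (8 of 825) and 1.02% (7 of 686), against 16.7% in cluster 2. After ATV:RSV the shares were 0.162, 0.127 and 12.6% in clusters 0, 1 and 2. The clusters were drawn from expression in these cells and so are not independent of the cycle genes. Median UMIs per cell before thinning were 5361 and 3824 in clusters 0 and 1 and 9077 in cluster 2.

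A cell at the threshold already differed from the cells just outside it. Of the 4891 cells, 588 held Mki67 alone, 2210 held Top2a alone and 2093 held both. Exactly 1 marker UMI was found in 1932 cells (39.5%) and at least 10 in 607, the highest being 70. At 3385 UMIs, cells with no marker UMI held 6.16 ± 0.388 UMIs of the 43 S phase genes and 4.52 ± 0.181 of the other 52 G2/M genes (mean ± SD over 3 mice). Cells with exactly 1 held 10.9 and 6.58, those with 2 to 4 held 15.3 and 9.56, and those with 5 to 9 held 18.6 and 14.0. Cells with at least 10 held 19.9 of S phase and 25.5 ± 1.33 of G2/M. From the fourth to the last of these classes the G2/M sum therefore rose by more UMIs than the S phase sum in every mouse. Cells with both markers had an S to G2/M ratio of 1.11, against 1.65 with Mki67 alone and 1.63 with Top2a alone.

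**Figure D2:**
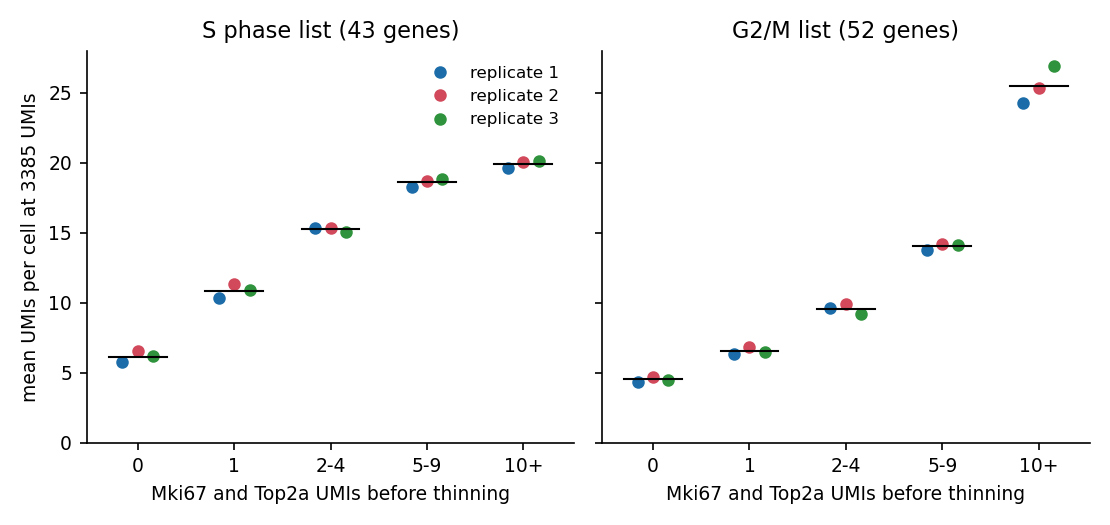
Mean UMIs per cell of the S phase list (left) and of the G2/M list without Mki67 and Top2a (right), at 3385 UMIs per cell, by the number of Mki67 and Top2a UMIs the cell held before thinning. Points are the 3 treated day 1 mice and lines their means; the S phase sum levels off near 19.9 while the G2/M sum reaches 25.5 in cells with 10 or more marker UMIs.

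The day 1 cells without a marker UMI held more transcripts of these lists than their counterparts after ATV:RSV. Their S phase sums of 5.78, 6.61 and 6.12 UMIs per cell lay above the 1.54, 1.51 and 1.42 of ATV:RSV cells without a marker UMI, with no overlap between the groups. At least 5 UMIs of both lists together were found in 83.0, 88.7 and 85.9% of them, against 44.3, 45.5 and 40.2% after ATV:RSV, so that 5 UMIs do not mark a cell as cycling. The comparison of cycling with other day 1 cells is therefore one between cells with more and cells with fewer cycle transcripts.

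Cycling cells held more RNA. To detect Mki67 and Top2a at equal depth, cells were split by whether a marker UMI was left after thinning. Median UMIs per cell before thinning were 10398, 9730 and 9831 in the 808, 1263 and 937 cells with one. In the rest they were 9062, 8382 and 8247, and these include cycling cells whose marker UMIs were lost in thinning. Every value of the first set lay above every value of the second, a ratio of 1.17 ± 0.023 (SD, n = 3). An exact two-sided sign-flip test gave p = 0.25, the smallest that 3 pairs allow. Without thinning the ratio was 1.36, a comparison that favours deep cells because a marker UMI is found more often in them. For the gene comparison each cycling cell was therefore paired with a day 1 cell of the same mouse and UMI class, which left medians of 11346 and 11308, 10339 and 10313, and 10240 and 10323 UMIs. 1393, 1977 and 1464 cycling cells found such a match. Median mitochondrial shares were 4.47, 4.04 and 4.56% in them and 4.53, 4.08 and 4.52% in the matched cells, while medians of 3299, 3110 and 3065 genes against 3111, 2932 and 2863 showed more kinds of RNA in the cycling cells.

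At matched depth 12023 genes were tested and 5702 (47.4%) differed at an adjusted p under 0.05 (limma with the mouse as a block, Benjamini-Hochberg over all genes). Of all genes 24.0% were higher and 23.5% lower in the cycling cells, so a list is read against those shares. Higher genes reached at least a 2-fold difference in 497 cases and lower genes in 61. p-values here rest on differences within only 3 mice, with the variance of each gene drawn by limma towards that of all genes. They are therefore not a measure of each gene's own spread over the mice. DESeq2 called 3017 genes, and limma without the mouse block 2873. The median difference over all genes was −0.0036 on the log2 scale. Levels below are TMM-scaled CPM (counts per 1000000 UMIs) in replicates 1, 2 and 3, and differences are log2 of cycling over other cells.

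The cycle lists moved with the genes that chose the cells and are given as a description. All 43 S phase genes and all 52 tested G2/M genes were higher, with median log2 differences of 1.19 and 2.42. Rrm2, a subunit of ribonucleotide reductase, stood at 37.1, 56.4 and 51.9 CPM in the cycling cells and at 1.22, 2.12 and 1.41 in the others, a difference of 4.89. Hmmr, which works at the mitotic spindle, stood at 21.3, 31.3 and 32.9 against 0.182, 0.141 and 0.268 CPM, a difference of 7.01 ± 0.36 (SE), with as few as 3 UMIs in a comparison sum. Both genes were separated by more than an order of magnitude in every mouse. Mki67 (chr7:135689784-135716361, mm10) and Top2a (chr11:98992943-99024189) stood at 117 to 163 and 203 to 247 CPM in the cycling cells and at 0 in the others by the rule.

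Regulators of the cycle were mostly higher too. 13 of 17 cyclins, CDKs and CDK inhibitors were higher and 2 were lower. Cyclin A2 (Ccna2), the S and G2 partner of CDK2 and CDK1, stood at 25.7, 33.6 and 31.9 CPM against 0.608, 0.987 and 0.940, a difference of 5.12. Cyclin E1 (Ccne1), which acts at the entry to S phase, differed by 3.00 and the mitotic cyclin Ccnb1 by 3.38. Of the G1 cyclins Ccnd2 and Ccnd1 were lower, at −0.76 and −0.20, and Ccnd3 was higher, at 0.48. The inhibitors Cdkn2a, Cdkn2c and Cdkn2d were higher by 2.33, 2.43 and 1.75, and Cdkn1b (0.11) and Cdkn1c (−0.28) were not called.

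Of 16 E2F, RB and DREAM regulators 12 were higher and none was lower. E2f7, a repressor among the E2F factors, stood at 7.27, 10.7 and 12.1 CPM against 0.122, 0.282 and 0.134, a difference of 5.58 that rests on as few as 2 UMIs. Foxm1 and Mybl2, the activators of the G2/M wave, were higher by 3.97 and 3.18. Among DREAM components Lin9, Lin54, Rbl1 and Tfdp1 were higher by 0.70, 0.86, 0.80 and 0.75, and Lin37, Lin52, E2f4 and Rbl2 were not called, at −0.05 to 0.07. Of 18 genes of nucleotide synthesis 17 were higher, with Tk1, the thymidine kinase, at 98.9, 119 and 108 CPM against 20.7, 25.4 and 19.9 (2.29), and only Impdh1 was lower, at −0.74. Of 13 histone genes 10 were higher and 2 lower, led by the linker histone Hist1h1b at 28.1, 37.2 and 39.6 against 1.09, 1.46 and 1.41 CPM (4.69). Most replication histone mRNAs lack a poly(A) tail, and the capture was of polyadenylated RNA.

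Outside the lists, the 10 highest genes by the naming rule were Prc1, Esco2, Pbk, Kif15, Pclaf, Knl1, Fbxo5, Ncapg, Gen1 and Shcbp1. Prc1, the highest at 5.86, bundles the spindle midzone and stood at 36.5, 54.6 and 50.8 CPM against 0.730, 0.940 and 0.671. Pclaf, which binds PCNA, stood at 168, 204 and 211 against 8.57, 10.3 and 12.7.

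Interferon response genes were lower in the cycling cells. 17 of 18 were lower and none was higher, against 23.5% lower over all genes, with a median of −0.85. Isg15, a ubiquitin-like modifier induced by type I interferon, stood at 189, 250 and 206 CPM in cycling cells and at 364, 434 and 516 in the others. No cycling value reached the lowest value of the other cells, and the difference was −1.01 ± 0.05 (SE, adjusted p = 1.19e-16). Ifit3, an interferon-induced antiviral gene, stood at 99.0, 112 and 95.9 against 211, 205 and 252 CPM (−1.10), and Irf7, the factor that amplifies the response, differed by −1.04. Cxcl10, the chemokine of the list, differed by 0.05 and was not called. The sum over the list, without matching on depth, was lower in cells with at least 10 marker UMIs than in cells with none in all 3 mice, at 45.7 against 52.3, 48.9 against 54.0 and 60.8 against 66.7 UMIs per 10000, but did not fall in steps between them. Its mean was 57.7 ± 7.89 (SD, n = 3) in cells with none, 51.5, 49.5 and 51.9 in the next classes and 51.8 ± 7.97 in cells with at least 10. In replicate 1, cells with 5 to 9 marker UMIs stood at 54.6 against 52.3 in cells with none. The median stayed between −1.62 and −0.61 in the other settings, leaving aside one with 24 to 37 comparison cells per mouse, in which Ifit3 turned to 1.63. Among the genes outside the lists with the lowest differences were Ifnb1, which encodes interferon beta, at 1.59, 2.76 and 2.96 CPM against 6.26, 6.21 and 15.2 (−1.83), and the interferon-inducible Slfn5 (−1.55). Cxcl9, an interferon-gamma target, was the lowest of the genes outside the lists by the naming rule, at −2.10. The rest of the 10 lowest were Fabp3, H2-M2, Il1rn, Kdm5b, Slamf7, Tcp11l2 and Tmem150a.

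Genes of the disease-associated microglia (DAM) state, which TREM2 is known to support, were lower as well. 14 of 18 were lower and 1, Ccl6, was higher at 0.11, with a median of −0.35. Lgals3, which encodes the lectin galectin-3, stood at 22.3, 17.7 and 17.3 CPM against 70.9, 61.1 and 59.0 (−1.74 ± 0.05, SE, adjusted p = 3.38e-21). The receptor Clec7a differed by −0.98 and the TAM receptor kinase Axl by −0.89, at 30.3, 22.2 and 18.9 against 45.1, 43.9 and 43.4 CPM. Cycling and other cells did not overlap for these 3 genes. Apoe differed by −0.16, at 497, 270 and 259 against 570, 307 and 273 CPM, where the spread between mice was wider than the difference within each, and by −0.44 without the cells that held at least 3 markers of another type. Without matching on depth, the sum over the list fell in steps with the marker UMIs. It went from 188.5 ± 5.31 UMIs per 10000 in cells with none to 177, 166, 157 and 145 ± 2.18 in cells with at least 10.

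Trem2 itself was slightly lower. It stood at 2031, 1867 and 1922 CPM in the cycling cells and at 2295, 2096 and 2211 in the others, with no overlap and a difference of −0.18 ± 0.01 (SE, adjusted p = 7.17e-14). Tyrobp, its adaptor, differed by −0.25. Of 14 TREM2 signalling genes 7 were lower and 2 higher, the latter being Syk at 0.14 and Akt1 at 0.09. The homeostatic list showed no common direction, with 6 of 17 higher, 5 lower and a median of 0.0030. P2ry12, the ADP receptor of resting microglia, differed by 0.07 but by −0.17 in thinned cells, −0.10 without matching, 0.05 (adjusted p = 0.0936) without replicate 3 and −0.08 against the other day 1 cells with fewest cycle transcripts. Tmem119 differed by 0.0018 (adjusted p = 0.937), but by −0.16 (adjusted p = 4.99e-11) in thinned cells, −0.12 (adjusted p = 1.74e-08) without matching and 0.09 (adjusted p = 4.98e-06) with library size alone.

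**Figure D3:**
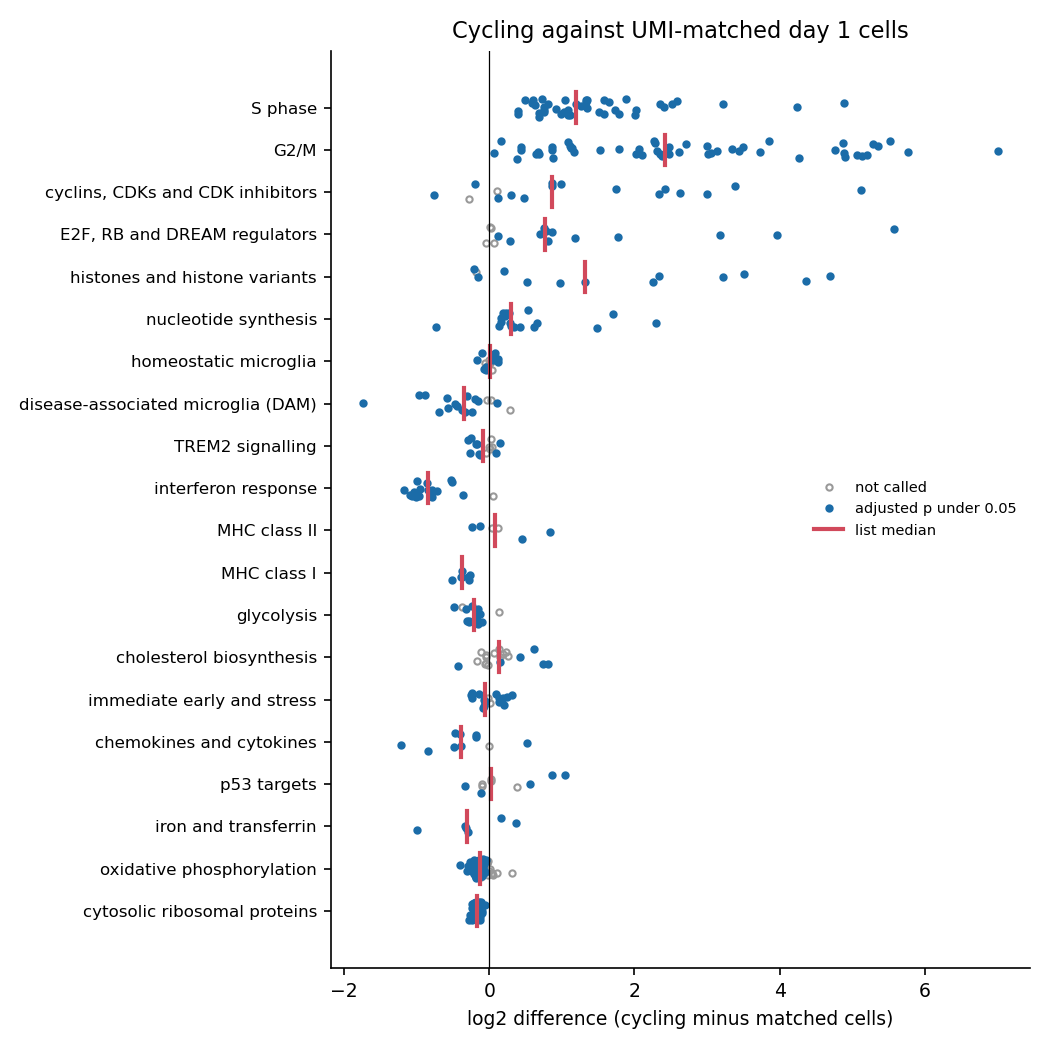
Log2 difference of each tested gene between cycling day 1 cells and UMI-matched day 1 cells of the same mice, by gene list. Filled points passed an adjusted p of 0.05, open points did not and red bars are list medians; the S phase and G2/M medians stand at 1.19 and 2.42, and the interferon response median at −0.85.

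At matched depth several other immune and metabolic lists were lower as well. Chemokine and cytokine genes were lower in 8 of 10 cases, with Ccl12, a ligand of CCR2, at 3403, 3449 and 4540 CPM against 5816, 6002 and 8690 (−0.84) and Ccl5 at −1.21, and Cxcl2 alone was higher at 0.51. All 7 MHC class I genes were lower, by up to −0.52 for Nlrc5. 12 of 14 glycolysis genes, 67 of 80 oxidative phosphorylation genes and 82 of 83 cytosolic ribosomal protein genes were lower and none was higher, with medians of −0.21, −0.13 and −0.18. Their sums without matching on depth were not lower in cells with exactly 1 marker UMI than in cells with none, at 50.4 against 49.6, 203 against 197 and 1599 against 1583 UMIs per 10000. In cells with at least 10 they were 46.6, 189 and 1385. When cells were thinned to one number of UMIs, 3 glycolysis genes were lower and 2 higher, 18 oxidative phosphorylation genes were lower and 8 higher, and 66 ribosomal protein genes were lower and 1 higher. Over all 11508 genes tested in thinned cells, 1885 were lower and 2343 higher. The lower counts of the glycolysis and oxidative phosphorylation lists were thus nearer to the share of all genes than at matched depth. Of 19 cholesterol synthesis genes 5 were higher, a share near the 24.0% of all genes, led by Sqle, the squalene epoxidase, at 0.81. Of this list 1 gene was lower. Of 19 immediate early and stress genes 7 were higher and 9 lower, all by less than 0.32 in size. With library size in place of TMM scaling the median of all genes moved to 0.08, and 70.5% of the called genes were higher in place of 50.5%. In that setting 11 glycolysis genes were lower and none was higher, 34 oxidative phosphorylation genes were lower and 7 higher, 77 ribosomal protein genes were lower and 1 higher, and 17 interferon response genes were lower and 1 higher. Over all 12023 genes tested with library size alone, 1719 were lower and 4106 higher.

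Among p53 targets 3 of 10 were higher and 2 lower, near the 24.0% higher and 23.5% lower over all genes. Cdkn1a, which encodes the CDK inhibitor p21, stood at 283, 377 and 317 CPM against 158, 186 and 200, with no overlap and a difference of 0.86 ± 0.04 (SE, adjusted p = 7.45e-18). Phlda3, an inhibitor of AKT, differed by 1.04, whereas Bax, which promotes cell death, differed by −0.34. Of the iron genes Tfrc, the mouse transferrin receptor, differed by 0.16, a call lost without replicate 1 (0.14) or replicate 3 (0.13), and Slc40a1, the iron exporter, by 0.37, and the heme-degrading Hmox1 differed by −0.997. MHC class II genes split, with H2-Eb1 at 0.84 and H2-Aa at 0.45 but Cd74 at −0.24 and H2-DMa at −0.12. The H2-Eb1 difference was 0.21 (adjusted p = 0.264) without the cells that held at least 3 markers of another cell type, −0.17 without the 5% of cells with most UMIs and 0.45 without replicate 1. In the first and second of these settings H2-Aa differed by 0.30 (adjusted p = 0.222) and 0.011 (adjusted p = 0.967), and its call was also lost without replicate 1 (0.32), without replicate 2 (0.30) and by DESeq2 (adjusted p = 0.237). Against the other day 1 cells with fewest cycle transcripts both genes were lower in the cycling cells, H2-Eb1 at −0.85 (adjusted p = 1.08e-05) and H2-Aa at −0.92 (adjusted p = 1.28e-06).

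The cycling cells were next split on the S phase share of their cycle transcripts. The sides are named for that share and not for a measured phase. Within each mouse the tercile with the smallest S phase share among its S and G2/M UMIs (the G2/M side) was set against the tercile with the largest (the S side), with 465, 670 and 490 cells on each side. The genes of both lists chose the sides and were left out. The sides were not matched on depth, with medians of 11627, 10508 and 10218 UMIs per cell on the G2/M side and 10320, 9605 and 9932 on the S side. Median marker UMIs were 3, 4 and 4 against 1, 2 and 2, so the split also set strongly against weakly marked cells. Of 10700 genes 981 (9.17%) differed, 5.96% being higher and 3.21% lower on the G2/M side. DESeq2 called 230 genes, 207 higher and 23 lower, and limma without a low-count filter 148 higher and 10 lower. With sides matched on UMIs per cell limma called 629 higher and 408 lower. Without replicate 2, the mouse with most cells, it called 508. Markers of border-associated macrophages made up 0.351, 0.319 and 0.706 UMIs per 10000 on the G2/M side and 0.148, 0.181 and 0.175 on the S side. Erythrocyte markers made up 0.0222, 2.84 and 0.715 on the G2/M side, where 1 cell per mouse held at least 3 of them, and 0.00964, 0.00871 and 0.0139 on the S side, and T cell markers 0.00342, 0.0377 and 0.0463 against 0.00193, 0.0131 and 0.00397. A second fit was made on the sides from which every cell positive for 3 or more markers of some other type had been removed.

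Histone genes and mitotic regulators led this comparison. 12 of 13 histone genes were higher on the G2/M side and none was lower, with a median of 0.82. Hist1h1b stood at 73.6, 91.3 and 98.7 CPM on the G2/M side and at 3.66, 4.89 and 6.69 on the S side, a difference of 4.11. Of 17 cyclins, CDKs and inhibitors 9 were higher, with the mitotic cyclin Ccnb1 at 16.6, 24.9 and 26.3 against 2.12, 1.44 and 2.43 CPM (3.49) and the CDK-activating phosphatase Cdc25b at 3.17. Cyclin E1 was higher as well, at 1.29, and Ccnd1 was the 1 lower gene, at −0.20. The nucleotide synthesis genes named by the rule were also higher on the G2/M side. Across all settings Tk1 differed by 0.48 to 0.72, Mthfd2 by 0.28 to 0.50 and Dut by 0.10 to 0.18. Of 16 E2F, RB and DREAM regulators 5 were higher, namely Foxm1 (2.43), E2f7 (1.52), Mybl2 (0.47), E2f2 (0.38) and Lin54 (0.27), and E2f1 was the 1 lower gene, at −0.29. Outside the lists Prc1 (3.70) and Fbxo5 (3.07), which holds the anaphase-promoting complex off, were the highest.

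p53 targets were higher on the G2/M side in 7 of 10 cases and lower in none, with a median of 0.50. Cdkn1a stood at 453, 666 and 511 CPM on the G2/M side and at 169, 213 and 199 on the S side. The sides did not overlap in any mouse, and the difference was 1.49 ± 0.04 (SE, adjusted p = 8.89e-65). Phlda3 differed by 2.47, with as few as 4 UMIs on the S side, and Trp53inp1, a p53-induced nuclear protein, by 1.52, or by 1.18 (adjusted p = 0.0713) without replicate 2. Zmat3 (0.11), Sesn2 (0.62) and Gdf15 (0.37) were not called.

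Immediate early genes were higher in 15 of 19 cases, with Klf2 at 340, 438 and 329 CPM against 230, 312 and 205 (0.57). The 2 lower genes were the heat shock genes Hspa1b (−1.03) and Hspa1a (−0.47). Interferon response genes were higher in 7 of 18 cases and lower in none, the median being 0.19, with Rsad2, the antiviral enzyme viperin, at 0.72 and Isg15 at 0.33. Chemokine genes were higher in 7 of 10 cases. 11 of 17 homeostatic genes were lower and none was higher, by up to −0.25 for Gpr34. Of 17 tested DAM genes 3 were higher and 4 lower, and Trem2 differed by −0.09, at 2084, 1879 and 1883 against 2196, 1984 and 2054 CPM. The Trem2 call (adjusted p = 0.0232) was lost by edgeR (0.0572) and DESeq2 (0.270), without replicate 1 (0.126) or replicate 2 (0.342), and after removal of cells positive for 3 or more other-type markers (0.114). 26 of 83 cytosolic ribosomal protein genes were lower and none higher, with a median of −0.08. DESeq2 called 23 lower genes over all genes, fewer than these 26, so part of the homeostatic and ribosomal calls was lost by it.

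Some differences between the sides moved with markers of other cells. H2-Eb1 stood at 25.9, 12.8 and 5.94 CPM on the G2/M side and at 3.66, 3.02 and 2.03 on the S side (2.29), and differed by 1.19 without the cells that held at least 3 markers of another type. H2-Aa differed by 2.00 and then by 1.55. Apoe differed by 0.85 and then by 0.34, and by 0.50 without replicate 3. Its call was lost by DESeq2 (adjusted p = 0.4995) and without the replicate block (adjusted p = 0.177).

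**Figure D4:**
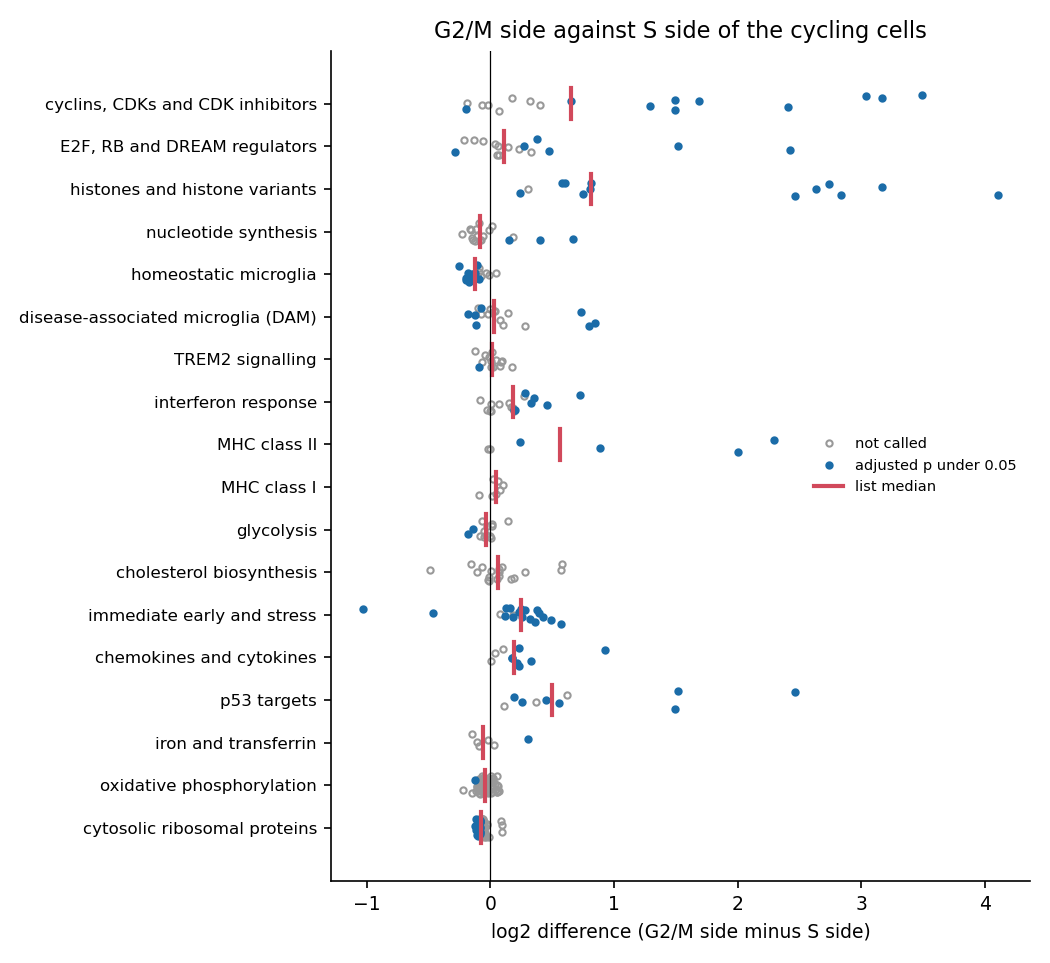
Log2 difference of each tested gene between the G2/M-side tercile and the S-side tercile of the cycling cells, by gene list, with the S phase and G2/M lists left out. Filled points passed an adjusted p of 0.05, open points did not and red bars are list medians; the histone median stands at 0.82, that of p53 targets at 0.50 and that of homeostatic genes at −0.13.

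The few marker-positive cells after ATV:RSV served as the control population. They numbered 48, 27 and 27, of which 51 of 102 fell into cluster 2, 36 into cluster 0 and 15 into cluster 1, so they were spread over clusters in which treated cycling cells were nearly absent. 45, 27 and 25 of them held at least 3 microglia markers. Erythrocyte markers made up 222, 5.95 and 374 UMIs per 10000 in them, from 2, 1 and 2 cells with at least 3 such markers, and border-associated macrophage markers 1.16, 0.919 and 0.223. Hbb-bs, a beta globin, stood at 12016, 343 and 22757 CPM against 1.13, 68.0 and 14.6 in the treated cycling cells.

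The treated cycling cells had a higher S to G2/M ratio of UMIs than the ATV:RSV positive cells, but not than the other treated cells. The ratio was 1.34, 1.27 and 1.27 in the cycling cells and 1.33, 1.39 and 1.38 in the day 1 cells without a marker UMI, with overlap. That of the ATV:RSV positive cells was 0.314, 0.329 and 0.222. The groups did not overlap, and the log2 difference was 2.19. An exact two-sided permutation test gave p = 0.1, the smallest that 3 against 3 mice allow. Positive cells were not matched on depth between the groups. Their medians were 11378.5, 10452 and 10313.5 UMIs per cell after ATV:4D9 and 9578, 5182 and 6181 after ATV:RSV. A marker UMI is found more often in deep cells, and the part of depth in the ratio was not tested. ATV:RSV cells without a marker UMI held 2.89, 2.98 and 2.80 UMIs of G2/M genes beside the 1.54, 1.51 and 1.42 of S phase genes given above, so G2/M UMIs outnumbered S phase UMIs in these cells too. Without the cells holding at least 3 markers of another type the ratios were 1.35, 1.28 and 1.28 against 0.338, 0.317 and 0.286, a difference of 2.06 (exact permutation p = 0.1). Mki67 stood at 129, 179 and 175 CPM against 337, 212 and 496, and Top2a at 225, 263 and 271 against 429, 320 and 440, a description of the rule.

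**Figure D5:**
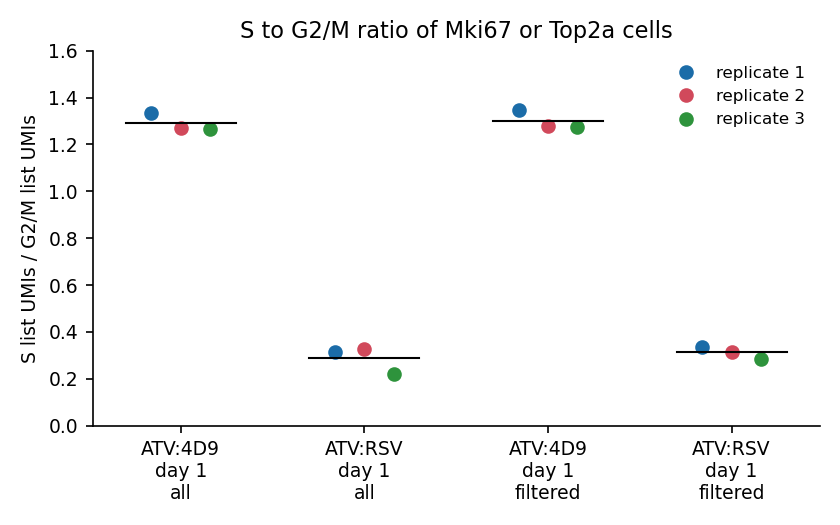
Ratio of S phase to G2/M list UMIs in Mki67 or Top2a positive cells of each day 1 mouse, after ATV:4D9 and after ATV:RSV, with all positive cells and filtered, that is without cells holding at least 3 markers of another type. Points are mice; the treated mice sit at 1.27 to 1.35 and the ATV:RSV mice at 0.222 to 0.338.

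Summed over the positive cells of each mouse, 2511 of 11238 genes (22.3%) stood at a different level after ATV:4D9 than after ATV:RSV, or 1301 with the batch number as a block. Of all genes tested 11.3% were higher and 11.0% lower after ATV:4D9. The positive cells of the groups were not matched on UMIs per cell in this comparison either. With 48 cells or fewer per ATV:RSV sum, genes of low level rested on few UMIs, and counts are also given over the 2840 genes with at least 10 UMIs in every sum, of which 26.8% were higher and 28.1% lower. Because the ATV:RSV sums are the small ones, that minimum keeps genes that are high after ATV:RSV and favours lower values after ATV:4D9. Of 43 S phase genes 36 were higher and none was lower (7 of 8 with the minimum), with the replication clamp Pcna at 498, 494 and 518 CPM against 226, 153 and 115 (1.52, adjusted p = 0.000768). Of 52 G2/M genes 29 were lower and 1 higher (20 and 1 of 26 with the minimum), with Ube2c, which tags mitotic cyclins for destruction, at 19.6, 27.5 and 29.8 against 348, 122 and 466 CPM (−3.53, adjusted p = 0.000215) and the centromere histone Cenpa at −3.31. Both lists chose neither group directly, but they include the wave to which Mki67 and Top2a belong. 10 of 13 histone genes were lower and none higher (9 of 10 with the minimum), with a median of −1.14.

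The treated cycling cells also differed from the ATV:RSV positive cells in genes of the microglial response. 9 of 10 chemokine and cytokine genes were higher and none lower (7 of 7 with the minimum), with Ccl12 at 3764, 3773 and 4991 CPM against 296, 117 and 342 (4.06) and Tnf at 1301, 1505 and 1621 against 389, 356 and 393 (1.94). 11 of 13 glycolysis genes and 57 of 79 oxidative phosphorylation genes were higher (8 of 9 and 59 of 73 with the minimum), with medians of 1.44 and 0.74, and Pkm, a pyruvate kinase, differed by 1.89. 10 of 17 DAM genes were higher and none lower (6 of 8 with the minimum), with Ctsz, a lysosomal protease, at 1.51. 8 of 17 homeostatic genes were lower and 1 higher (11 and 1 of 17 with the minimum), with P2ry12 at 797, 739 and 768 against 1436, 1660 and 1717 CPM (−1.04). Trem2 differed by 0.0016 (adjusted p = 0.993), at 2246, 2042 and 2113 against 1814, 2301 and 2461 CPM, and the groups overlapped. Outside the lists Mif, a secreted cytokine, was the highest by the naming rule (2.63), at 807, 764 and 857 against 167, 99.3 and 94.0 CPM, and Ramp1, a receptor activity-modifying protein, was among the lowest (−2.52). Treatment, the S to G2/M ratio and UMIs per cell differ together between these cells and cannot be told apart here. With library size alone 30.4% of the called genes were higher in place of 50.7%, and the median of all genes moved from −0.04 to −0.22.

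A last comparison asked whether the excess of a gene in positive over matched negative cells of the same mouse differed between ATV:4D9 and ATV:RSV. Of 11833 genes 636 (5.37%) differed, or 353 without replicate 1 of ATV:RSV, and of the 2800 with at least 10 UMIs in every sum 10.5% had a higher and 12.4% a lower excess after ATV:4D9. Over all genes tested 0.668% had a higher and 4.71% a lower excess. Without the low-count filter 138 genes had a higher and 5097 a lower excess. The part of low ATV:RSV counts in the lower calls was not tested. When cells positive for markers of other types were also removed, 166 of 2461 genes had a higher and 348 a lower excess. G2/M genes had a lower excess in 35 of 52 cases (7 of 11 with the minimum, which favours genes high after ATV:RSV), with the kinase partner Cks2 at −2.72 (adjusted p = 0.000353) and Tubb4b, a beta tubulin, at −1.84. Homeostatic genes had a higher excess in 8 of 17 cases (15 with the minimum) and a lower one in none, with a median of 0.29. P2ry12 was 0.07 higher in positive than in negative cells after ATV:4D9 and differed by −0.41 after ATV:RSV, a difference of 0.48 ± 0.07 (SE, adjusted p = 0.00403), or 0.31 (adjusted p = 0.0572) without replicate 1 of ATV:RSV. After removal of cells positive for 3 or more other-type markers, 10 of 17 homeostatic genes had a higher excess with the minimum. Cxcl10 (−3.57), Cd74 (−2.49) and Tnf (−1.39) had a lower excess, as had Stmn1 (−2.91), a tubulin-binding protein. Immediate early genes had a higher excess in 8 of 19 cases, or with the minimum in 13 of 16 and, without those cells, 7 of 16.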

How the data were processed

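The authors deposited 1 matrix of UMI counts per gene and cell, pooled over 15 libraries, with a table that names the mouse and the cluster number of each cell and gives its percent of mitochondrial UMIs. Per the submitters' processing notes, 10x 3′ reads were mapped to mm10 with Cell Ranger 4.0.0. The filter on cells is not given in the sources used here. The deposited percent of mitochondrial UMIs was within 0.01 of the value recomputed from the counts in all 102043 cells. Libraries held 32341960 to 70307384 UMIs.

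The members and the gene lists were chosen with earlier results of these data known. Counts were summed per mouse and population, filtered with filterByExpr of edgeR 4.0.16 (minimum count 10, total 15), scaled by TMM and fitted with limma-voom 3.58.1 in R 4.3.3, with Benjamini-Hochberg adjustment over all genes tested. Cycling cells were matched to other day 1 cells in classes of 0.05 in log10 UMIs, 1 to 1, and ATV:RSV positive cells to 5 negative cells each. The mouse was a block within day 1 because both populations come from the same animal. Deviations of the 2 populations of 1 mouse correlated at 0.425 to 0.500. Those of different mice, at −0.310 to −0.105, are tied to these values because each population was centred over the 3 mice. For shares every cell was thinned to 3385 UMIs, the 10th percentile. Alternatives were edgeR, DESeq2 1.42.0, other scalings, filters and cell rules, and leaving out each mouse. Genes named are Mki67, Top2a, 12 fixed genes, the called list members with the largest differences, and outside the lists the 10 highest and 10 lowest (5 and 5 after the first comparison) with at least 10 UMIs in each sum and 1 sign in 3 of 3 mice. Other list members named were chosen after their values were seen. In simulated counts the tests recovered 100% of 2-fold changes between cycling and matched cells, 98.2% between the sides, 24.7% between ATV:4D9 and ATV:RSV positive cells and 4.41% for the excess. For log2 changes of 0.5 the shares were 48.5, 37.8, 2.86 and 0%, and false calls numbered 10, 5, 40 and 18. Only genes of higher count were changed, at a set dispersion and without a mouse effect, so recovery in the real counts can differ. Gene positions are those of GENCODE M21, promoters those of RefSeq.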

Additional observations from a re-analysis of the deposited data

Results flagged for a closer look

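For 37 genes named by the rule, the excess in Mki67 or Top2a positive over matched negative cells differed between ATV:4D9 and ATV:RSV day 1 by a test of the difference itself (limma, Benjamini-Hochberg adjusted p under 0.05). Values are that difference on the log2 scale, a negative one meaning a smaller excess after ATV:4D9, and the ATV:RSV sums behind them come from 48, 27 and 27 cells. No explanation of them was tested.

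Among cycle genes the values were Fen1 (−1.32) and Tyms (−0.86) for S phase, Cks2 (−2.72) and Tubb4b (−1.84) for G2/M, H2afx (−1.91) and H2afz (−1.12) for histones and Cdkn1a (−1.48) and Bax (−0.96) for the p53 targets. Microglial state genes with a larger excess after ATV:4D9 were P2ry12 (0.48) and Slc2a5 (0.51), and those with a smaller one were Cd52 (−1.10) and Cd9 (−0.30). Immune genes were Cxcl10 (−3.57), Bst2 (−1.50), Cd74 (−2.49), H2-D1 (−0.62), H2-K1 (−0.59), Tnf (−1.39) and Cxcl16 (−0.85). Immediate early genes were Fosb (0.67) and Jund (0.48). Metabolic and ribosomal genes were Gapdh (−0.49), Ndufa5 (−0.82), Ndufa12 (−0.79), Fth1 (−0.38), Rps27l (−0.93) and Rpsa (−0.42). Outside the lists a larger excess was found for Tmem245 (0.90), Hfe (0.90), Arap3 (0.84), Csmd3 (0.83) and Sox4 (0.80) and a smaller one for Stmn1 (−2.91), Emp3 (−2.15), Prdx2 (−1.81), Ddx39 (−1.70) and Selenoh (−1.70). For the excess 46 named genes were tested, and 10 lost their call without cells holding at least 3 markers of another type, Prdx2 being at −0.18 (adjusted p = 0.616). In that setting 2 more changed sign, called in neither fit, and 1, Spp1, changed sign and was called. Among the genes listed here the call was lost in that setting for Tyms, Slc2a5, Fosb, Ndufa12, Rpsa, Tmem245, Arap3, Csmd3 and Prdx2. Without ATV:RSV replicate 1, 3 of the 46 changed sign, called in neither fit, and 20 lost their call. Those listed here were Fen1, Tyms, Cdkn1a, Slc2a5, P2ry12, Cd9, H2-D1, H2-K1, Gapdh, Fosb, Jund, Cxcl16, Ndufa5, Rps27l, Rpsa, Tmem245, Hfe, Arap3 and Csmd3. Slc2a5, Cxcl16 and Arap3 lost it without ATV:RSV replicate 2, and Tyms, Cd9, Fosb, Cxcl16, Arap3 and Csmd3 without ATV:RSV replicate 3. Cxcl10, Cd74 and Tnf kept their call in each of these settings.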

How the results depend on the processing

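Counts of called genes are given for the settings that moved them by over 1.5 times, with the range without 1 mouse, which did not always do so. The cause was not tested where the construction does not show it. Between cycling and matched cells 5702 genes were called, 3017 by DESeq2, 128 against comparison cells with at most 1 cycle UMI (24 to 37 cells per mouse) and 4426 to 5045 without 1 mouse. Between the G2/M and S sides it was 981, 158 without a low-count filter, 230 by DESeq2 and 508 to 760 without 1 mouse, the 508 being without replicate 2. For the excess it was 636, 5235 without the filter, 1657 without matching and 353 to 711 without 1 mouse, the 353 being without ATV:RSV replicate 1. For positive cells of ATV:4D9 and ATV:RSV it was 2511, 9650 without the filter, 1557 over genes with at least 10 UMIs in each sum, 1405 when cells with markers of another type were also left out, and 1712 to 2607 without 1 mouse. Without the replicate block 2873, 260 and 304 genes were called in the first 3 comparisons, and with the batch number as replicate block 1301 in the fourth. With library size alone or edgeR, 22.9% and 28.9% of called excesses were higher in place of 12.4%. The thinned share of 15.5% was 23.9% without thinning, 7.23% with at least 2 marker UMIs and 14.2 to 17.3% without 1 mouse. The ratio of UMIs per cell of 1.17 was 1.36 for cells chosen before thinning and 1.15 to 1.18 without 1 mouse.

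Of the named genes' values in other settings, 1818 of 1934, 635 of 827, 622 of 725 and 914 of 957 kept direction and call in the 4 comparisons. Sign changes against cells with at most 1 cycle UMI were Selplg −0.44, Fcrls −0.44, Pik3ap1 0.022, Ifit3 1.63, Aldoa 0.11, Tpi1 0.36, Hspa1a 0.53, Bax 0.032, Cox7b 0.61, Atp5md 0.27, P2ry12 −0.87 and, uncalled in either, Tmem119 −0.21. In thinned cells they were Selplg −0.043, Klf4 −0.078, P2ry12 −0.17 and Tmem119 −0.16, and without matching Selplg −0.016, P2ry12 −0.10 and Tmem119 −0.12. Against the quartile with fewest cycle UMIs they were H2-Eb1 −0.85, H2-Aa −0.92, Hspa1a 0.12 and P2ry12 −0.085, without the 5% of cells with most UMIs H2-Eb1 −0.17, and with library size alone Csf1r 0.040. For the excess Spp1, with 0 UMIs in a sum, was −4.11 to 3.65 without 1 mouse, the lowest being without ATV:RSV replicate 2, and −3.84 without cells with markers of another type. Settings that leave out cells with markers of another type beyond the first comparison, the quartile with fewest cycle UMIs and the minimum of 10 UMIs were chosen after seeing the data. 48, 27 and 27 ATV:RSV cells limit the last 2 comparisons.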
